A study of Homo sapiens with 48 samples.

Results

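The response of HT1197 cells to CPI-0209 was measured across all genes. HT1197 is an established human bladder carcinoma line, and CPI-0209 is an inhibitor of EZH2. The samples were chosen by their labels: 3 libraries of cells treated with 250 nM CPI-0209 for 4 days and 3 libraries of cells given the vehicle DMSO, 6 of the 48 libraries in the series. The other 42 come from 7 bladder cancer lines (VMCUB, TCCSUP, 639V, T24, SW780, KU1919 and HT1376), handled with the same dose and time, and serve here only to show where HT1197 differs. The labels give no other agent or engineered allele, and leave unsaid whether each replicate came from a culture of its own. The p-values therefore reflect the variation among these 6 libraries alone, which could be purely technical. HT1197 is 1 line, so its values describe these cells and not bladder carcinoma in general.

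EZH2 is the enzyme of Polycomb repressive complex PRC2, which places methyl groups on histone H3 around silent developmental genes. PRC1, a second Polycomb complex, binds such chromatin and adds to the silencing. Many PRC2 targets in mammals have promoters rich in CG dinucleotides and encode transcription factors, signalling ligands and receptors that act in embryonic tissues.

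The 6 libraries held 42222202 to 50916911 counts, with 3.28% to 3.71% of counts in mitochondrial genes. The first principal component, 54.3% of the variance of log2 CPM, separated the treatments. On the second, 13.02%, CPI-0209 replicate 3 and DMSO replicate 2 lay apart from the other libraries. Replicates differed by more than sampling noise (chi-square over degrees of freedom of 3.65 to 6.27). Several epithelial markers were high, with KRT8 at 16000 CPM (the count scaled by library size) on average in DMSO, CDH1 at 1289 and GATA3 at 198. The keratin KRT17, on the same marker list, was low at 8.06 CPM. Of 16 leukocyte markers, 3 passed the filter on low counts, and FCGR3A had 0 counts. PTPRC had at most 4 counts in any library and CD3D at most 2.

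EZH2 transcript (ENSG00000106462, chromosome 7, 148807383 to 148884321, GRCh38) stood at 36.6, 35.4 and 33.5 CPM in DMSO and at 35.5, 35.6 and 36.6 CPM in CPI-0209. The groups overlapped, and the log2 fold change was 0.03 ± 0.04 (SE, adjusted p = 0.711). Its sign turned when 1 library was left out. CPI-0209 acts on the protein, so the EZH2 transcript is no check of the treatment labels.

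The response was broad but shallow, and its rises were larger than its falls. Of 15579 genes tested, 1844 rose and 1215 fell at an adjusted p under 0.05 (edgeR's quasi-likelihood test, Benjamini-Hochberg adjustment), 11.8% and 7.8% of those tested. The median rise among the 1844 was 0.49 on the log2 scale, with quartiles of 0.26 and 0.89. The median fall among the 1215 was far smaller, 0.16 on the log2 scale. At least 2-fold rises numbered 369, which is 2.37% of tested genes, and 44 of them were at least 4-fold. At least 2-fold falls numbered 5, 0.0321% of tested genes. Falls of at least 1.5-fold numbered 15 and such rises 778. The 3 CPI-0209 libraries lay wholly to 1 side of the 3 DMSO libraries in 1823 of the higher and 1193 of the lower genes, and in 35.23% of all tested genes. Leaving out any 1 library, which also leaves fewer libraries for the test, reduced both counts. The lower count was 709 without DMSO replicate 2, 803 without CPI-0209 replicate 1 and 809 without CPI-0209 replicate 3, and at most 1130. The higher count was 1408 to 1668. The count of falls of at least 2-fold was 16 without CPI-0209 replicate 2 and 10 without CPI-0209 replicate 1 or DMSO replicate 3. The share of calls that were higher was 60.3%. It was 75.6% when libraries were scaled by their totals, 84.2% with the spread estimated over all 48 libraries and 52.3% with DESeq2, which called 1227 higher and 1120 lower. The fit over all 48 libraries, here and below, also took its filter, scaling and p adjustment from all of them, with 19790 genes tested. Which of these steps changed the calls was not tested.

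**Figure D1:**
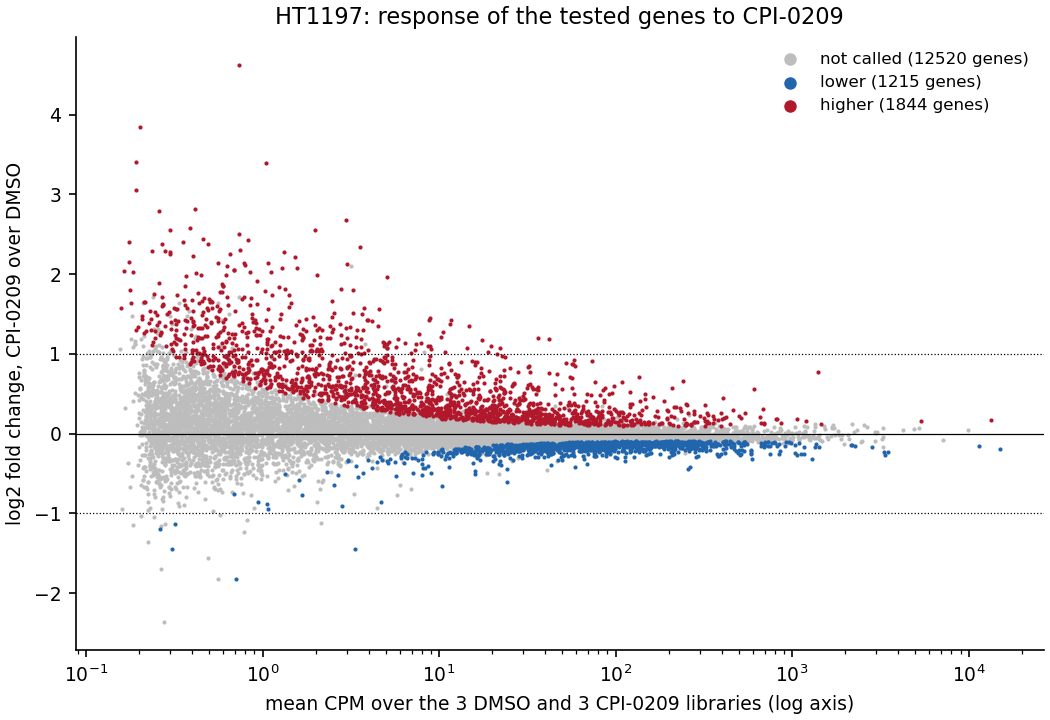
Log2 fold change of CPI-0209 over DMSO against mean CPM over the 6 libraries (log axis), 1 point per tested gene. Red points are the 1844 genes called higher, blue points the 1215 called lower and grey points those not called; dotted lines mark 2-fold. Large rises sit at low levels, while the falls form a thin band among well expressed genes.

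The genes that rose most were mostly at low levels before treatment. The 369 genes with a rise of at least 2-fold had a median of 0.413 CPM in DMSO and 1.11 CPM in CPI-0209. In DMSO, 269 of them (72.9%) lay under 1 CPM, against 18.6% of all tested genes. Together they went from 442.4 to 1065.7 CPM. The 1215 lower genes had a median of 80.95 CPM in DMSO, and their sum went from 219640.6 to 195857.8 CPM. The DMSO level is also the denominator of the fold change. Genes that passed the filter on low counts only through their CPI-0209 libraries had to rise. The low DMSO levels of genes with large rises, and the shares at low levels given next, are therefore descriptions.

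Per length, rises and falls occupied different levels. Levels here are mean CPM per kilobase of exon over all 6 libraries. In the 1538 genes from 0.1 to 0.3 CPM per kb, 18.3% rose and 0.1% fell. From 30 to 100 CPM per kb, with 1083 genes, 7.2% rose and 20.5% fell. The share with at least a 2-fold rise went from 10.86% in the band under 0.1 CPM per kb to 1.05% from 1 to 3 CPM per kb and to 0 above 30. Precision differed between the bands. The median SE was 0.26 on the log2 scale from 0.1 to 0.3 CPM per kb and 0.04 from 30 to 100, so falls as small as those of abundant genes were not detectable at low levels.

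Among genes at low level, those that rose were more often rich in CG dinucleotides. Genes were split into quintiles by the CG pairs per 100 bases in the first 300 bases of their longest GENCODE 29 transcript, a window that 99.0% of tested genes have. Below 1 CPM per kb, 9.2% of genes rose in the CG-poorest quintile (141 of 1528). The share was 11.3%, 17.6% and 26.1% in the next quintiles and 40.4% in the CG-richest (242 of 599). Rises of at least 2-fold went from 3.21% to 18.7% over the same quintiles. At 1 CPM per kb or more the shares were 12.2% in the poorest quintile, 6.8% in the middle and 13.7% in the richest. The share that fell among these better expressed genes was between 10.0% and 11.4% in every quintile. These shares are descriptions and were not tested. Below 1 CPM per kb the median SE was 0.265 in the CG-poorest quintile and 0.207 in the richest, so precision changed along with CG content. All gene types were pooled, and 12.5% of protein-coding genes but 2.0% of processed pseudogenes were called higher at any level. GC content moved with CG content, with a median of 67.3% in the genes that rose at least 2-fold and 61.7% in all tested genes, and its part in the pattern was not tested.

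**Figure D2:**
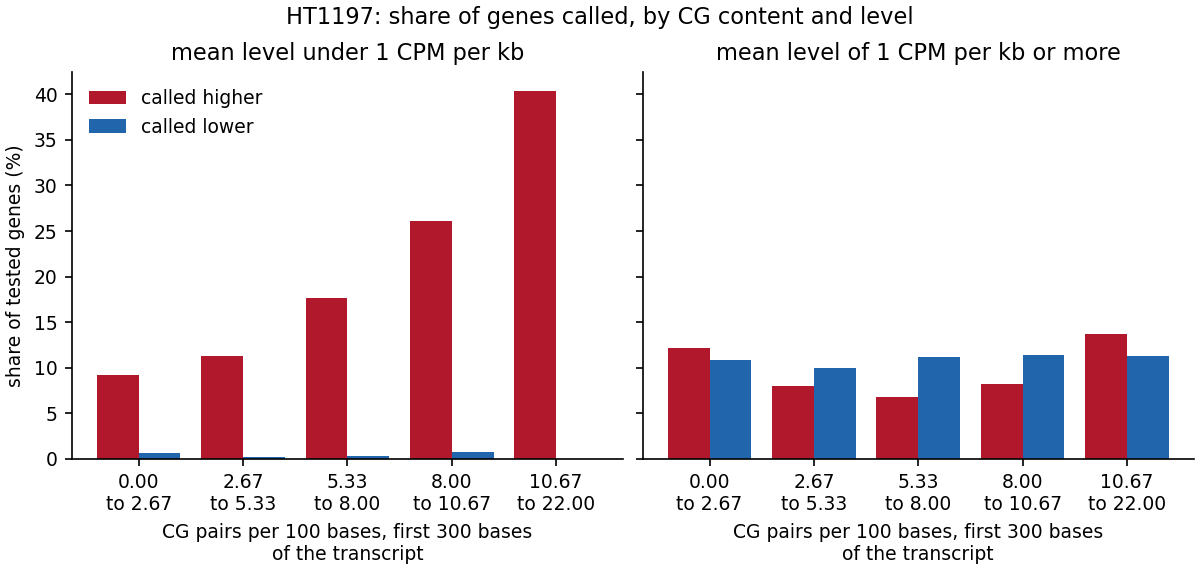
Share of tested genes called higher (red) and lower (blue) by quintiles of CG pairs per 100 bases, for genes under 1 CPM per kb (left) and at 1 CPM per kb or more (right). On the left the higher share climbs from 9.2% to 40.4%; on the right both shares stay between 6.8% and 13.7%.

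Promoters of genes with large changes show the range of CG content. The 250 bases before the start site are given for 3 genes that rose (GNB4, RET and WNT5B) and 2 that fell (SLC19A2 and FILIP1), the foremost by fold change that the RefSeq promoter table (GRCh38.p14) matched. The table matched 5 of the 15 named higher and 13 of the 15 named lower genes. Capitals mark each CG pair. A CG reads the same on both strands.
GNB4: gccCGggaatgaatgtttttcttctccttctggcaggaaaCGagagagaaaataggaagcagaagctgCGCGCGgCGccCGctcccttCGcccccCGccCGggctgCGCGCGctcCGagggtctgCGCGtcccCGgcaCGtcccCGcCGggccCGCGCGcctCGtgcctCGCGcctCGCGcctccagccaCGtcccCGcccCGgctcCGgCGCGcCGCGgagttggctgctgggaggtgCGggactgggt
RET: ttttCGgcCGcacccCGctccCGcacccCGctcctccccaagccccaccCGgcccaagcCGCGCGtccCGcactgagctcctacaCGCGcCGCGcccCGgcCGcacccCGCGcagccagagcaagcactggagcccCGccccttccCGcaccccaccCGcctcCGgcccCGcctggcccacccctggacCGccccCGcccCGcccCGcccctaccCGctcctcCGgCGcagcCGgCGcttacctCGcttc
WNT5B: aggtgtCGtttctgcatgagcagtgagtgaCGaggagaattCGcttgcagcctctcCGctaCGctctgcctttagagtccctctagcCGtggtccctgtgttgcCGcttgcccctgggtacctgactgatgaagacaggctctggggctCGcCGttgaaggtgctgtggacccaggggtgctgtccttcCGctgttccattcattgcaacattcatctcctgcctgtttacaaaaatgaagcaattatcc
SLC19A2: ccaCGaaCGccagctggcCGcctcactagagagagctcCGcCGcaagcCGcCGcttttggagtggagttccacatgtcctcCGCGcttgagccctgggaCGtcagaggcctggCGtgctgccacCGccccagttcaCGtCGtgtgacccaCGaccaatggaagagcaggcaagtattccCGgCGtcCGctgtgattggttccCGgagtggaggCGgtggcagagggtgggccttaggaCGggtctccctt
FILIP1: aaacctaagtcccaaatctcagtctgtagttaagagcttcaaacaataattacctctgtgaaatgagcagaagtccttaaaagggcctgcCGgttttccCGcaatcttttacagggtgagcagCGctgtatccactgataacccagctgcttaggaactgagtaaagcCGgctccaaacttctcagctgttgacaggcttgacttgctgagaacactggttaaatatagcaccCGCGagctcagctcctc
The GNB4 window (chr3:179451471-179451720, minus strand) holds 37 CG pairs, and 4.0% of the 35116 promoters in the table hold as many. RET (chr10:43076819-43077068, plus strand) has 33, matched or exceeded by 8.1%. WNT5B (chr12:1616806-1617055, plus strand), where several start sites are annotated, has 10, below the table's median of 11, and 52.2% hold at least as many. Its window lies well inside the gene as annotated, which begins at 1529891, and which start site HT1197 uses was not tested. The SLC19A2 window (chr1:169485971-169486220, minus strand) has 21 and that of FILIP1 (chr6:75493801-75494050, minus strand) has 6. At least 1 CG occurs in 93.9% of promoters. The windows shown do not order the 5 genes by direction, since SLC19A2 has more CG pairs than WNT5B. That order rests on the start site taken for WNT5B.

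These 5 genes had the following levels. GNB4, a G protein beta subunit, stood at 0.726, 0.523 and 0.477 CPM in DMSO and at 3.33, 3.798 and 3.04 CPM in CPI-0209. RET, the receptor tyrosine kinase of glial-derived neurotrophic ligands, stood at 0.204, 0.167 and 0.286 CPM in DMSO and at 1.35, 1.08 and 1.31 CPM in CPI-0209. WNT5B, a Wnt ligand, went from 0.249, 0.309 and 0.119 CPM to 1.24, 0.834 and 1.19 CPM. In these 3 genes every treated library exceeded every control library by more than 2-fold. The rises were 2.55 ± 0.18, 2.50 ± 0.26 and 2.25 ± 0.30 on the log2 scale (edgeR adjusted p = 5.35e-08, 4.51e-06 and 6.02e-05). SLC19A2, a thiamine transporter, went from 4.74, 4.26 and 5.60 CPM in DMSO to 1.76, 1.54 and 2.08 CPM, a fall of 1.44 ± 0.14 (adjusted p = 1.78e-06). FILIP1, which encodes a filamin-interacting protein, had 1.66, 1.10 and 0.882 CPM in DMSO and 0.706, 0.746 and 0.538 CPM in CPI-0209. Its fall of 0.86 ± 0.25 (adjusted p = 0.0204) lost its call in 5 of the alternatives tried.

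Gene lists are described below by how many tested members were called, to be read against 11.8% higher and 7.8% lower over all tested genes and a median log2 fold change of 0.001. No list was tested as a set. Levels near 0 in both groups kept many members out of the test, so counts cover the members that passed the filter.

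The PRC2 genes changed little, while some PRC1 genes rose. Of 14 tested PRC2 genes, 1 rose and 2 fell, with a median of -0.02. EZH1, the alternative catalytic subunit, rose by 0.17 ± 0.06 (adjusted p = 0.0375), and the core subunit SUZ12 fell by 0.12 ± 0.04 (adjusted p = 0.0478). These calls were lost in 7 and 9 of the alternatives. EED, another core subunit, had a change of -0.02 (adjusted p = 0.776), and its sign turned when libraries were scaled by their totals. In PRC1, 6 of 23 tested genes rose and 1 fell. BMI1, a PRC1 ring-finger subunit, went from 48.3, 49.9 and 47.3 CPM to 68.7, 67.4 and 68.9 CPM, a rise of 0.49 ± 0.04 (adjusted p = 9.36e-08). The chromobox gene CBX2 stood at 13.7, 14.8 and 14.7 CPM in DMSO and at 19.3, 19.7 and 20.2 CPM in CPI-0209, a rise of 0.46 ± 0.05. For both genes the 2 groups were well apart, and both were also called higher in each of the 7 other lines. With the spread estimated over all 48 libraries, 2 PRC1 genes kept a higher call.

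Most tested Hedgehog pathway genes rose. Hedgehog ligands bind PTCH1, which releases SMO and lets GLI factors switch on target genes. Of 9 tested genes 7 rose and 0 fell, with a median of 0.79, and 5 rose with DESeq2. The ligand genes SHH, IHH and DHH did not pass the filter on low counts, nor did GLI1 and HHIP. SMO stood at 1.04, 1.17 and 1.17 CPM in DMSO and at 5.14, 4.54 and 5.03 CPM in CPI-0209, a rise of 2.12 ± 0.12 (adjusted p = 8.61e-09). GLI2, a transcription factor of the pathway, went from 0.295, 0.357 and 0.357 CPM to 1.39, 1.65 and 1.08 CPM, a rise of 2.02 ± 0.24 (adjusted p = 1.64e-05). For SMO and GLI2 the lowest treated library lay far above the highest control library. The co-receptor gene BOC rose by 1.245 ± 0.186 and its relative CDON from 0.546 to 1.36 CPM, by 1.31. PTCH1, both receptor and target, stood at 2.95, 2.90 and 2.53 CPM and rose by 0.79 ± 0.10 to 4.82, 4.90 and 4.75 CPM. GLI3 and SUFU also rose, by 0.29 and 0.19, but not in every alternative. GAS1, a co-receptor, had a value of 0.31 and was not called.

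In TGF-beta, BMP and activin signalling, most tested ligands and targets rose. These ligands bind paired serine kinase receptors that pass the signal to SMAD factors. Over the pathway 29 of 45 tested genes rose and 2 fell (median 0.24). With the spread estimated over all 48 libraries 19 rose and 0 fell. By role, 10 of 13 ligands rose with a median of 0.78, against 4 of 11 receptors with a median of 0.10. TGFB2 stood at 11.9, 13.4 and 12.3 CPM in DMSO and at 26.1, 25.3 and 25.2 CPM in CPI-0209, a rise of 1.03 ± 0.05. BMP6 went from 1.75, 1.52 and 1.76 CPM to 5.37, 4.72 and 4.31 CPM, by 1.52 ± 0.13. BMP7 rose from 23.4, 22.9 and 25.8 CPM to 41.4, 41.2 and 40.7 CPM, by 0.78 ± 0.05. No treated library of these ligands overlapped a control library. BMP4 rose by 0.70 ± 0.05, BMP2 by 1.55 from 0.251 CPM, and the activin subunit genes INHBA and INHBB by 2.08 and 1.15. Among antagonists 7 of 11 rose and 2 fell, including a rise of 1.36 for FST, which encodes the activin-binding follistatin, and falls of LTBP1 and LTBP3, which hold latent TGF-beta in the matrix. Of 10 genes listed as targets of the pathway 8 rose and 0 fell. They included ID2 at 0.67, ID4 at 1.19, SMAD7 at 0.27 and the matricellular gene CCN2, which went from 156, 162 and 187 CPM to 247, 257 and 249 CPM (0.58 ± 0.06).

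Wnt genes that passed the test nearly all rose. Wnt ligands bind Frizzled receptors, LGR receptors add to the signal, and AXIN2 and NKD1 are feedback targets. Of 41 tested genes 22 rose and 1, WNT9A, fell, with a median of 0.35. Over all 48 libraries 15 rose and 0 fell. LGR5, a stem cell receptor for R-spondins, went from 0.658, 0.690 and 1.07 CPM to 4.61, 5.36 and 5.50 CPM, a rise of 2.67 ± 0.16. The R-spondin genes themselves did not pass the filter. WNT11 stood at 42.4, 45.7 and 48.6 CPM in DMSO and at 66.7, 66.0 and 69.7 CPM in CPI-0209, a rise of 0.57 ± 0.05. WNT5A went from 2.39 to 4.79 CPM on average, by 1.00. The 2 groups did not overlap for LGR5 or WNT11. Of 7 genes listed as targets, LEF1 and SP5 did not pass the filter. TCF7L1, itself a transcription factor of the pathway, is counted here as listed. The 5 tested all rose, among them AXIN2 by 0.65, NKD1 by 1.22, TCF7 by 0.52 and TCF7L1 by 0.53 ± 0.05. Secreted antagonists rose beside them, 4 of 7, with SFRP1 going from 84.5, 83.0 and 87.2 CPM to 129, 132 and 136 CPM (0.64 ± 0.03) and DKK1 from 26.8 to 40.3 CPM. LGR4, LRP5 and FZD6 were not called, with values of -0.09, -0.08 and -0.08.

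Receptor tyrosine kinases moved both ways. Of 34 tested receptors 15 rose and 5 fell. Those that rose included RET, KIT (0.255 to 0.935 CPM, 1.86) and the ephrin receptor EPHB2, which went from 1.248, 1.67 and 1.69 CPM to 3.88, 4.26 and 3.79 CPM (1.37 ± 0.14). The epithelial receptor EGFR fell from 433 to 364 CPM on average, by 0.25. ERBB3, the neuregulin receptor, stood at 99.0, 93.1 and 97.8 CPM in DMSO and at 79.1, 83.2 and 77.0 CPM in CPI-0209, a fall of 0.28 ± 0.04 whose call was lost over all 48 libraries. The groups were apart for EPHB2 and ERBB3, in opposite directions. With the spread estimated over all 48 libraries the list had 6 higher and 0 lower receptors. FGFR1, FGFR2, FGFR3 and FGFR4 all rose, by 0.36, 0.48, 0.42 and 0.30, but the calls of FGFR2 and FGFR4 were lost over all 48 libraries. Ephrins and their receptors, which signal between touching cells, had 11 higher and 0 lower of 16, and 5 higher over all 48 libraries. EFNB3, an ephrin ligand, rose by 2.28 ± 0.19 from 0.476, 0.428 and 0.453 CPM to 1.82, 2.37 and 2.44 CPM. EPHB6, a kinase-dead member, rose by 0.62 ± 0.04.

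Notch genes (8 of 19 higher, 0 lower, and 4 higher over all 48 libraries) included the ligand DLL1, which rose by 2.25 ± 0.37 to 0.510, 0.483 and 0.492 CPM, and the Notch-modifying enzyme LFNG, which rose by 0.56 ± 0.07. The targets HEY1, HES4 and HES1 had values of 0.06, 0.11 and 0.34 and were not called. In retinoid and vitamin D metabolism 9 of 16 genes rose and 0 fell. CYP24A1, which breaks down active vitamin D, went from 1.09, 1.12 and 1.33 CPM to 6.18, 6.24 and 5.57 CPM (2.34 ± 0.12), and its receptor gene VDR rose by 0.74. CYP26B1, which breaks down retinoic acid, went from 14.2, 14.1 and 13.9 CPM to 24.6, 24.9 and 23.1 CPM (0.79 ± 0.05). Treated and control libraries of both enzymes lay far apart.

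**Figure D3:**
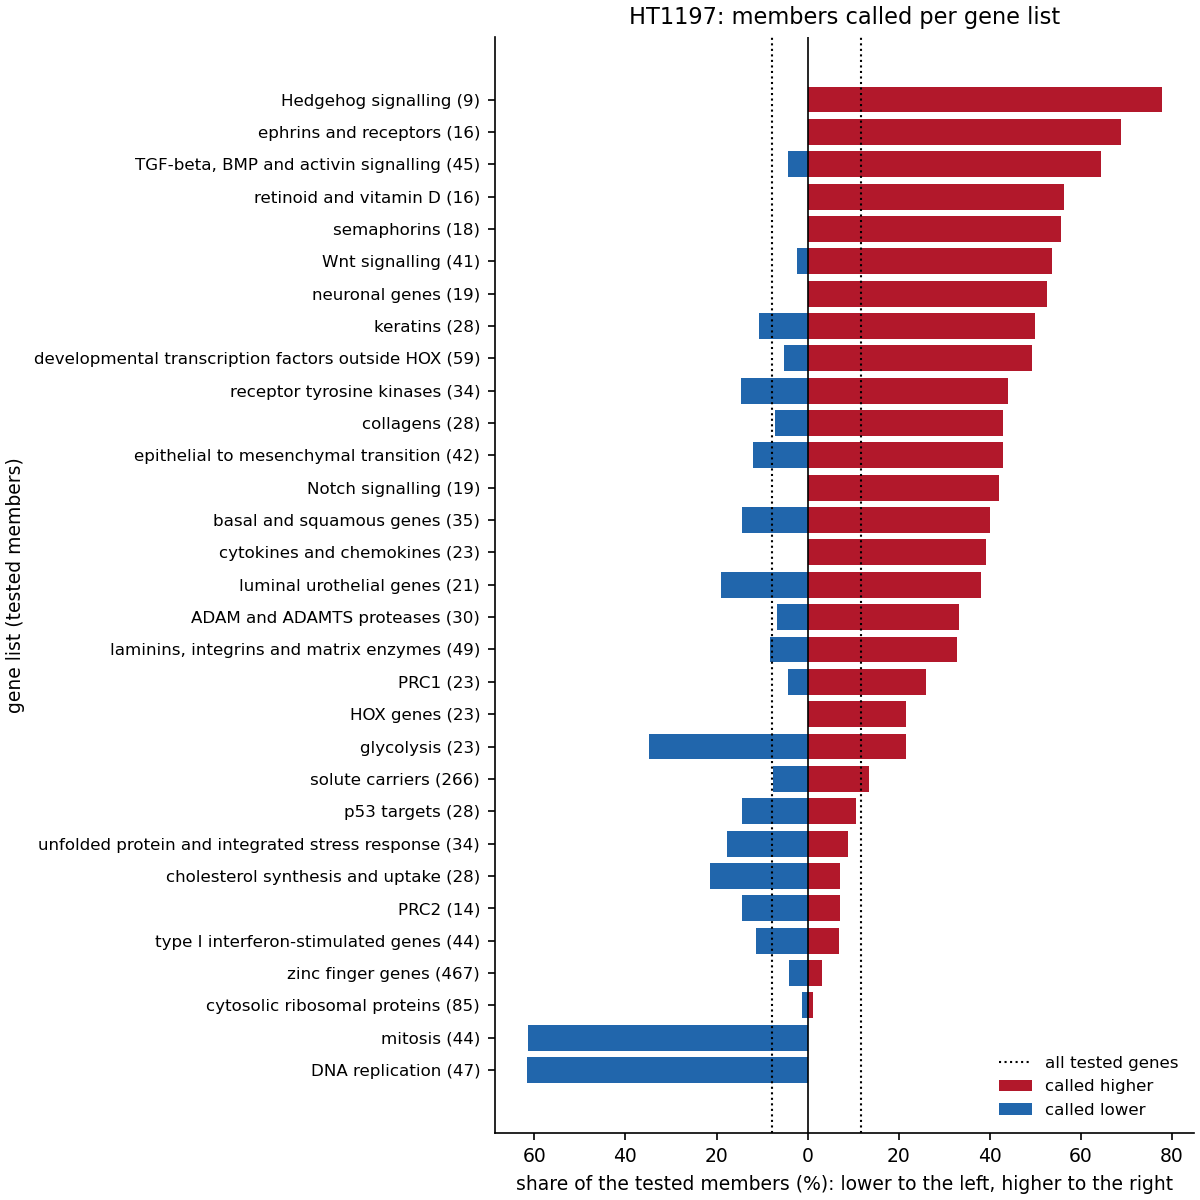
Share of the tested members of 31 gene lists called higher (red, to the right) and lower (blue, to the left) in HT1197, with the number tested in brackets. Dotted lines mark 11.8% and 7.8%, the shares over all tested genes. Hedgehog and ephrin genes reach furthest to the right, and DNA replication and mitosis genes to the left.

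Developmental transcription factors outside the HOX clusters had 29 higher and 3 lower of 59 tested, and 14 of the rises were at least 2-fold. BARX1, a homeobox factor, stood at 0.590, 0.619 and 0.739 CPM in DMSO and at 2.06, 1.95 and 2.48 CPM in CPI-0209 (1.73 ± 0.18). GATA4, an endoderm and heart factor, went from 2.00, 1.93 and 2.00 CPM to 4.90, 4.74 and 4.94 CPM (1.298 ± 0.106). PITX1, a hindlimb factor, went from 14.6, 16.2 and 17.4 CPM to 26.6, 24.5 and 26.1 CPM (0.68 ± 0.06). In each the treated libraries were all above the controls. ZIC2, MSX1 and FOXC2 rose by 2.45, 2.05 and 1.88. The 3 that fell were LHX4, TFAP2A and GATA2. TFAP2A, an epithelial factor at 316 CPM in DMSO, fell by 0.20, and GATA2, at 349 CPM, by 0.11, though its call was lost in 6 of the alternatives. Of the 121 listed factors 62 did not pass the filter, so their counts were near 0 in both groups. HOX genes had 5 higher and 0 lower of 23 tested, from the B and C clusters, and none of the 9 HOXD genes passed the filter. The HOX count was 2 with DESeq2 and 2 in the lowest case with 1 library left out.

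Called matrix and guidance genes were more often higher than lower, but not in every family. Mesenchymal genes of the epithelial to mesenchymal transition list had 13 higher and 1 lower of 22, while its epithelial genes had 2 higher and 4 lower of 15. SNAI2, a repressor of epithelial genes, stood at 118, 120 and 118 CPM in DMSO and at 156, 164 and 153 CPM in CPI-0209 (0.40 ± 0.03). MMP2, a gelatinase, went from 42.4, 42.2 and 41.5 CPM to 68.2, 69.6 and 68.5 CPM (0.71 ± 0.04). The epithelial adhesion gene CDH1 did not pass the test, with a value of -0.05, and EPCAM fell by 0.27 ± 0.04, a call lost over all 48 libraries. Over all 48 libraries the whole list had 10 higher and 0 lower, against 18 and 5 here. Collagens had 12 higher and 2 lower of 28 (7 and 0 over all 48 libraries), with COL27A1 rising by 1.10 ± 0.05 from 12.9, 12.02 and 12.6 CPM to 25.9, 27.8 and 26.6 CPM. Metalloproteinases had 7 higher and 0 lower of 13, laminins 3 and 1 of 11 and integrins, the matrix receptors, 2 and 2 of 16. Of 18 semaphorins, guidance cues for axons and vessels, 10 rose and 0 fell, and of 10 semaphorin receptors 2 rose and 0 fell. L1CAM, a neural adhesion molecule, went from 39.2, 35.4 and 36.0 CPM to 67.4, 69.9 and 66.6 CPM (0.88 ± 0.04), and 10 of 19 neuronal genes rose and 0 fell. Fibroblast markers moved with these groups: 6 of 12 rose and 0 fell. LUM, which encodes the matrix protein lumican, went from 4.95, 4.38 and 4.96 CPM to 13.7, 12.7 and 12.5 CPM. The summed level of the 12 markers was 713 to 760 CPM in DMSO and 744 to 763 CPM in CPI-0209, and their part in the result was not tested. DCN and POSTN lay under 1 CPM in both groups.

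Cell cycle genes moved the other way, together and by small amounts. None of 47 DNA replication genes rose and 29 fell, with a median of -0.16. None of 44 mitosis genes rose, 27 fell, and all 44 had a value below 0, with a median of -0.14. Well expressed genes in general leaned down: 65.9% of those from 10 to 30 CPM per kb and 71.0% from 30 to 100 had a value below 0. In these bands 16.1% and 20.5% were called lower. Of 15 housekeeping genes 0 rose and 4 fell, with a median of -0.08. The cell cycle lists were not compared with genes of matched level. MCM4, a helicase subunit, stood at 290, 300.3 and 315 CPM in DMSO and at 222, 236 and 220.5 CPM in CPI-0209, a fall of 0.42 ± 0.04 (adjusted p = 9.04e-07). PCNA, the polymerase clamp, went from 509, 515 and 533 CPM to 460, 433 and 444 CPM (-0.22 ± 0.03, not called over all 48 libraries), and the mitotic factor FOXM1 from 110, 115 and 111 CPM to 91.9, 96.5 and 98.2 CPM (-0.23 ± 0.04). The groups did not overlap in these genes, but the gap was small beside the level. Origin licensing and helicase genes had the most falls, 13 of 17, against 8 of 18 polymerase and clamp genes. With the spread estimated over all 48 libraries 15 replication and 12 mitosis genes fell, and no member rose in any alternative. In bulk RNA a smaller share of dividing cells and less of these transcripts per cell cannot be told apart.

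Regulators of G1 were split. E2F1, E2F2 and CCNE1 fell by 0.25, 0.25 and 0.21. The D cyclin CCND1 rose by 0.29 ± 0.03 from 420, 419 and 410 CPM to 509, 516 and 507 CPM. CDKN2A, whose products include the inhibitors p16 and ARF, stood at 19.8, 21.2 and 20.9 CPM in DMSO and at 32.6, 29.6 and 32.8 CPM in CPI-0209 (0.62 ± 0.05). The neighbouring inhibitor gene CDKN2B rose by 0.42 ± 0.05. All treated libraries lay above all controls for CCND1 and CDKN2A. CDKN1A had a value of 0.06 and was not called. CDKN2A was called higher in 0 and lower in 3 of the 7 other lines.

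Most called keratins rose, while the most abundant ones fell. Of 28 tested keratins 14 rose and 3 fell, with 6 higher and 0 lower over all 48 libraries. KRT6A, a keratin of stressed and hyperproliferative epithelium with near-identical copies, went from 979, 1040 and 1080 CPM to 1837, 1743 and 1720 CPM (0.77 ± 0.04), a call lost over all 48 libraries (edgeR adjusted p = 0.429). KRT34, a hair keratin, rose from 14.2, 16.3 and 17.4 CPM to 32.3, 30.1 and 30.9 CPM (0.96 ± 0.06). The simple epithelial keratins KRT8 and KRT18, the most abundant of the family, fell by 0.19 ± 0.05 and 0.15 and lost their calls in other fits. Treated and control libraries did not overlap for KRT6A or KRT34. Of 35 basal and squamous genes 14 rose and 5 fell, and 3 and 0 over all 48 libraries. FLG, which encodes filaggrin of the cornified layer, rose from 1.01 to 2.36 CPM, while the desmosomal cadherin DSG1 fell by 0.33 ± 0.05, and both calls were lost over all 48 libraries. Luminal genes had 8 higher and 4 lower of 21, 3 and 1 over all 48 libraries, and as few as 5 higher or 2 lower with 1 library left out. GRHL3 rose by 0.48 ± 0.04, and UPK1B, a uroplakin of the bladder surface, fell from 531, 544 and 530 CPM to 456, 448 and 447 CPM (-0.25 ± 0.03). Of the luminal regulators, GATA3 and PPARG had values of -0.02 and -0.04 and were not called, and FOXA1 did not pass the filter.

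Among genes at 50 CPM or more in DMSO, the largest rise was that of EPGN, an EGF-family ligand, which went from 48.8, 54.1 and 50.2 CPM to 99.7, 96.5 and 91.6 CPM (0.91 ± 0.04). FABP5, a fatty acid carrier, rose by 0.71 ± 0.04, THBS1, a matrix glycoprotein, by 0.66 ± 0.03 and the glucose transporter SLC2A3 by 0.56 ± 0.04. The largest falls at this level were those of ADAM8, a membrane protease, which went from 284, 299 and 307 CPM to 218, 213 and 220.4 CPM (-0.45 ± 0.04), MCM4 and SOX15 (-0.41 ± 0.04). ADAM8 fell while 10 of 30 genes of its protease family rose and 2 fell. Among moderately expressed genes the protease gene CAPN8 stood at 30.2, 28.1 and 29.2 CPM and fell to 18.6, 19.5 and 19.3 CPM (-0.61 ± 0.05). MXD1, a partner of MAX that opposes MYC, fell by 0.47 ± 0.05. The drug efflux transporter ABCG2 fell by 0.30 ± 0.03.

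**Figure D4:**
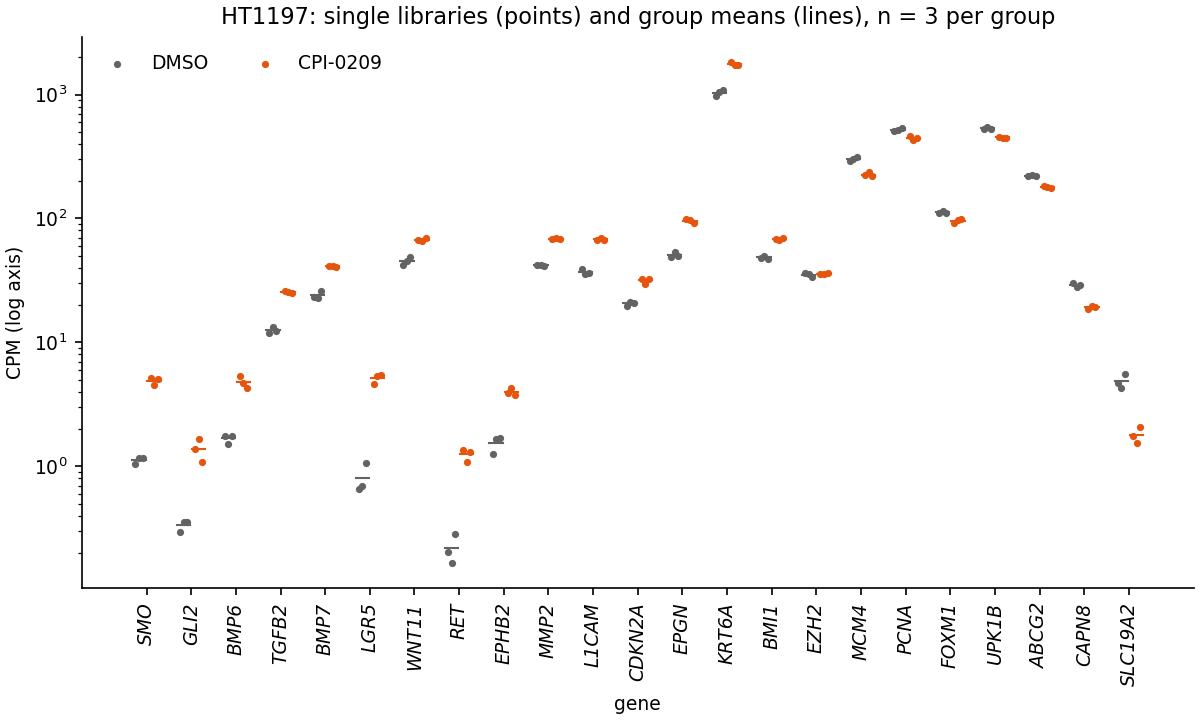
CPM (log axis) of 23 genes in each DMSO (grey) and CPI-0209 (orange) library, with the group mean as a line, n = 3 libraries per group. Levels of different genes are not corrected for length. EZH2 overlaps between the groups, and the other genes shown do not.

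Several other programmes had counts close to the background, and others did not. Interferon-stimulated genes had 3 higher and 5 lower of 44, and antigen presentation genes 2 and 1 of 19. CIITA, the master regulator of MHC class II genes, had a value of 0.03 and was not called. Cytokines and chemokines had 9 higher and 0 lower of 23, including IL11, which rose by 1.00 ± 0.14, and TNFSF9, a T cell costimulatory ligand, which went from 12.5, 14.4 and 15.6 CPM to 27.2, 28.4 and 29.5 CPM (1.00 ± 0.07). Targets of p53 had 3 higher and 4 lower of 28, and genes of the unfolded protein and integrated stress responses 3 and 6 of 34. Glycolysis genes had 5 higher and 8 lower of 23, with 4 to 11 lower when 1 library was left out and 1 over all 48 libraries, and with LDHA falling by 0.26 ± 0.03 from 1225, 1215 and 1215 CPM to 1035, 1017 and 998 CPM. Cytosolic ribosomal protein genes had 1 higher and 1 lower of 85, complex I genes 1 and 0 of 37, and zinc finger genes 15 and 19 of 467. The zinc finger lower count was as low as 6 with 1 library left out and 3 over all 48 libraries. Over all 48 libraries no interferon-stimulated, p53 target or stress response gene was called lower.

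Genes that changed tended to lie beside each other. Of the higher genes with a position, 31.7% had a higher gene as an immediate neighbour among tested genes, against 21.9% of all tested genes. For lower genes it was 22.3% against 14.9%, and for rises of at least 2-fold 13.3% against 4.7%. The 3 longest runs held 5 higher genes in a row. One was the keratin run KRT6B, KRT6C, KRT6A, KRT5 and KRT71 (chromosome 12, 52446651 to 52553147, rises of 0.57 to 0.87). Another was TCHH, HRNR, FLG, CRCT1 and IVL in the epidermal differentiation complex (chromosome 1, 152106317 to 152911886, rises of 0.22 to 1.22). The last was KLHL35, GDPD5, SERPINH1, MAP6 and DGAT2 (chromosome 11, 75422394 to 75801535). Reads shared between the KRT6 copies, and reads of overlapping genes where counting ignored strand, could add to such runs, and this was not tested. By chromosome, X had the largest share of higher genes, 17.4% (90 of 517), and chromosome 19 the smallest among those numbered, 8.0%.

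HT1197 had the narrowest response of the 8 lines. Its log2 fold changes spanned 0.95 from the 5th to the 95th percentile, against 1.55 in KU1919, the next, and 3.02 in HT1376. Rises of at least 2-fold numbered 369 in HT1197 and 792 to 2113 in the other lines. The lines were fitted one by one and share no control libraries. The shares of tested genes called higher were 23.7% in HT1376, 9.3% in KU1919, 30.8% in SW780, 9.37% in T24, 22.1% in 639V, 25.7% in TCCSUP and 16.4% in VMCUB. The shares called lower were 16%, 2.4%, 30.3%, 0.93%, 17.1%, 23% and 11% in the same order. Of the 369 genes with a rise of at least 2-fold in HT1197, 171 (46.3%) were called higher in 5 or more of the other 7 lines, against 6.3% of all genes tested in HT1197. Only 18 of the 369 were called higher in none. HT1376, which had the most such rises, 2113, also shared the most in number. In both lines 231 rose at least 2-fold, 62.6% of the HT1197 genes and 10.9% of the HT1376 genes. The share of the other line's own genes ran from 9.4% in 639V to 13.5% in KU1919. Counting calls of any size, 74.8% of the 369 were higher in SW780 and 73.7% in HT1376. Among the lower genes 57 of 1215 (4.7%) were lower in 5 or more other lines, against 1.2% of all genes tested, and 0 in all 7. In the other direction, 358 genes rose at least 2-fold in 5 or more of the other lines. HT1197 had 173 of these called higher, 77 of them at least 2-fold, 74 not called, 1 lower and 110 that did not pass the filter.

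A direct test of the difference compared the change in HT1197 with the mean change of the other 7 lines, over all 48 libraries. Of 19790 genes, 559 lay above that mean (2.82%) and 1408 below it (7.11%). The difference was at least 2-fold for 50 and 557 of them. The count above the mean was 878 without KU1919 and 937 without T24. Of the 1408, 763 were not called in HT1197, 411 rose there by less than the mean of the other lines, 145 fell and 89 were not tested.

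The genes below the mean of the other lines were often already expressed in untreated HT1197. The median DMSO level of the 1408 was 14.96 CPM in HT1197, and the median of their typical level in the other lines 3.26 CPM. HT1197 had the highest DMSO level of the 8 lines in 34.4% of them, against 15.5% of all genes tested, and the lowest in 2.1%, against 14.4%. For the 559 genes above the mean it was the other way: HT1197 had the lowest level in 34.7%, and their median was 27.8 CPM in HT1197 against 47.9 CPM elsewhere. The DMSO libraries enter both the level and the fold change, so these are descriptions with no test.

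LIPG, an endothelial-type lipase, shows the first pattern. It stood at 311, 297 and 289 CPM in HT1197 DMSO and at 303, 319 and 301 CPM in CPI-0209, and the groups overlapped. On a scaling over all 48 libraries its DMSO mean was 364 CPM in HT1197 and 1.75 to 47.3 CPM in the other lines, where 6 of 7 called it higher, with changes of 0.15 to 3.06. The difference was -1.54 ± 0.07 (edgeR adjusted p = 3.91e-18). NTN1, the guidance cue netrin-1, had 83.0 CPM in HT1197 DMSO against 0.138 to 49.1 CPM elsewhere, and DLX3, an epidermal homeobox factor, 38.4 CPM against 0.0833 to 4.00 CPM. Their differences were -2.48 ± 0.14 and -2.35 ± 0.13, and HT1197 was the highest line for both in DMSO. HES2, BAMBI, NFATC1 and VWA5A had differences of -1.60, -1.89, -2.13 and -1.95, with HT1197 ranked 1, 1, 3 and 2 in DMSO level. BAMBI, a decoy receptor for TGF-beta ligands, still rose in HT1197, by 0.36 ± 0.05.

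Many pathway members described above also moved by less than the mean of the other lines. Of 41 tested Wnt genes, 19 lay below that mean and 2 above, against 7.11% and 2.82% of all genes. The counts were 14 and 5 of 45 for TGF-beta, BMP and activin signalling and 15 and 1 of 34 for receptor tyrosine kinases. For developmental factors they were 19 and 6 of 59. LGR5, WNT11, BMP7 and GATA4 had differences of -2.26, -2.02, -1.98 and -3.25, but EPHB2 and PITX1 had 0.67 and 0.59. The genes named here were picked after their values were seen. AXIN2 rose by 0.65 in HT1197 and by 1.31 to 4.89 in the other lines, a difference of -1.89 ± 0.22 (edgeR adjusted p = 3.40e-08). INHBB had a difference of -1.27 ± 0.19 and FGFR2 one of -1.67 ± 0.19. The Notch target HEY1, not called in HT1197, had a difference of -1.13 ± 0.12.

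The opposite pattern held for the named genes with a larger response. PTK7, a Wnt co-receptor, stood at 15.02, 12.3 and 15.2 CPM in HT1197 DMSO and at 29.8, 30.6 and 29.1 CPM in CPI-0209, a rise of 1.07 ± 0.07 with the groups apart. On the scaling over all 48 libraries its DMSO mean was 17.2 CPM in HT1197 and 90.2 to 224 CPM in the other lines, whose changes lay between -0.28 and 0.37. Its difference was 1.03 ± 0.10 (adjusted p = 1.02e-09). SPRED1, a brake on RAS signalling, had 1.74 CPM in HT1197 DMSO against 18.8 to 121 CPM elsewhere. After CPI-0209 it was still below every other line, at 4.28 CPM. Its difference was 1.22 ± 0.14. GNB4, BDNF, CPA4, CCDC88A and MARK1 had differences of 1.99, 1.23, 1.18, 1.04 and 1.58, and HT1197 had the lowest or the next lowest DMSO level for each.

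**Figure D5:**
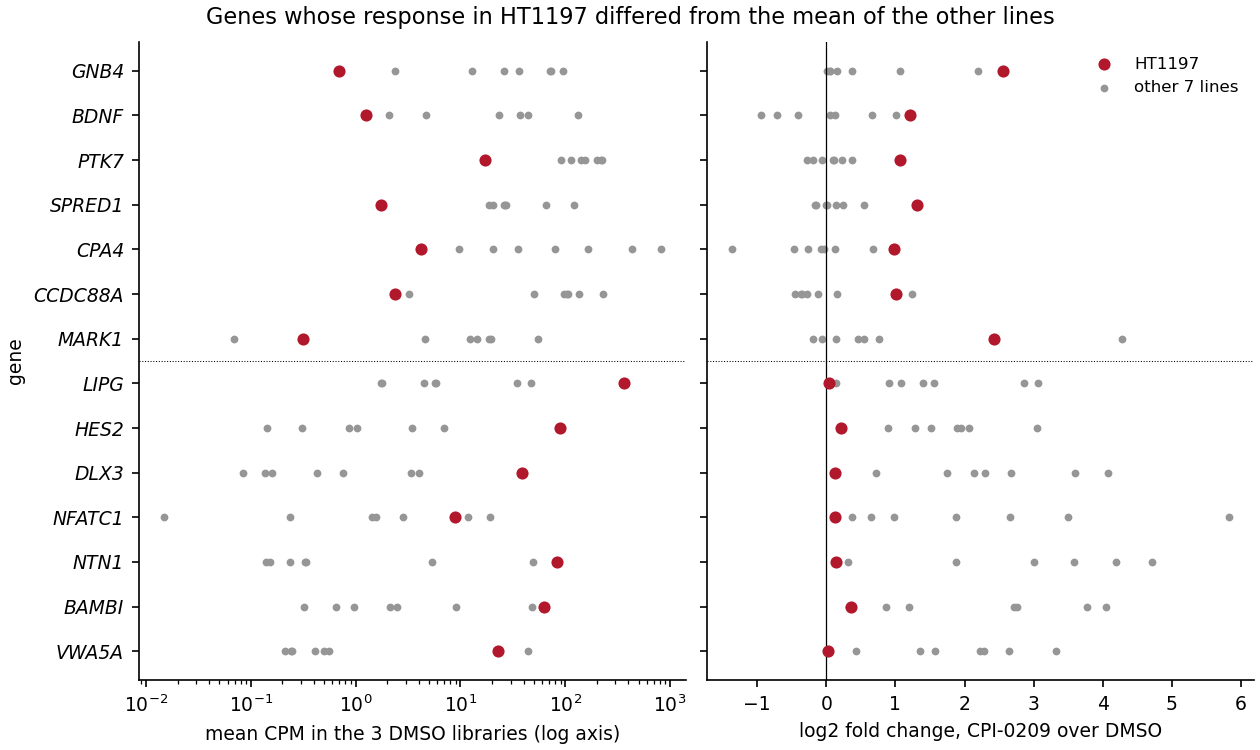
Mean DMSO CPM on a scaling over all 48 libraries (left, log axis) and log2 fold change of CPI-0209 over DMSO (right) in HT1197 (red) and the other 7 lines (grey), for 7 genes above and, under the dotted line, 7 genes below the mean response of the other lines. HT1197 lies at the low end of the DMSO levels above the dotted line and at or near the high end below it.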

How the data were processed

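RNA-seq libraries were made from total RNA (Trizol) with a TruSeq kit and read as paired ends, per the labels' protocols. The authors deposited a table of whole-number counts per gene. STAR 2.7.3a, RSEM 1.3.1 and hg38 are named in the submitters' processing notes. How RSEM's estimates became whole counts, and whether strand was used, was not stated, so antisense, overlapping and near-identical genes are uncertain. Groups came from the labels. The counts were fitted with edgeR 4.0.16 in R 4.3.3 (filterByExpr, TMM, robust quasi-likelihood, Benjamini-Hochberg, threshold 0.05, 4 residual degrees of freedom). A gene passing the filter only through the group where it is high had to differ. CPM uses library totals, 42222202 to 50916911 counts, multiplied by TMM factors. SE is the log2 fold change over the root of F. The difference from other lines is 1 contrast over 48 libraries. Scripts were tested on simulated data. Alternatives were DESeq2 1.42.0, other scalings, no filter, all 48 libraries, a replicate block and leaving out each library. Named genes were the largest called changes among all genes, among well expressed genes, within lists and in the difference. A few genes that the rule picks are not reported here. Members and lists were chosen with earlier results of these data known. Symbols are current gene names, with GENCODE 29 names for 114 genes. Positions, gene types and exon lengths follow GENCODE 29 (GRCh38).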

Additional observations from a re-analysis of the deposited data

Results flagged for a closer look

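The change in HT1197 differed from the mean change of the other 7 lines, by a test of the difference itself in edgeR over all 48 libraries, for 559 genes above and 1408 below that mean. Above it lay GNB4 (difference 1.987), BDNF (1.227), PTK7 (1.029), SPRED1 (1.221), CPA4 (1.176), CCDC88A (1.037) and MARK1 (1.576). Below it lay LIPG (-1.537), HES2 (-1.598), DLX3 (-2.351), NFATC1 (-2.13), NTN1 (-2.483), BAMBI (-1.886) and VWA5A (-1.951). BDNF and CCDC88A were called lower in 3 and 4 of the other lines and rose in HT1197, by 1.20 ± 0.15 and 1.02 ± 0.12. No gene named here lost its difference call or turned sign in the alternatives run.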

How the results depend on the processing

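Of 231 named genes 229 were called, and 85 of them lost the call in at least 1 alternative, 78 with all 48 libraries and 35 when a library was left out. Signs turned for EZH2, not called, without DMSO replicate 3 (-0.006; range with 1 library left out up to 0.058) and for EED, not called, with library totals (0.006). Genes higher numbered 1227 with DESeq2, 1063 with the fit over all 48 libraries and 1408 to 1668 when 1 library was left out, against 1844. Genes lower numbered 199 over all 48 libraries and 685 with library totals, and 709 to 1130 when 1 library was left out, against 1215. Falls of at least 2-fold numbered 3 with DESeq2, 2 over all 48 libraries, 34 with no filter and 5 to 16 with 1 library left out. Genes above the mean of the other lines numbered 878 without KU1919 and 937 without T24, against 559. Of the genes called here, 38.5% were also called over all 48 libraries, 72.6% with DESeq2 and 82.7% with library totals. The cause was not tested.

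With the replicate number as a block, 1651 genes were higher and 908 lower, and 384 and 1168 lay above and below the mean of the other lines. Deviations of same-numbered libraries had correlations of -0.071, -0.079 and -0.054, and those of differently numbered libraries -0.04 to 0.112. Same-numbered libraries were thus not more alike, but 3 libraries per group cannot show whether the numbers mark pairs.

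Counts set the limit at low levels, where the median SE was 0.334 on the log2 scale under 0.1 CPM per kb, against 0.035 from 30 to 100.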

Other observations

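Some protein-coding genes had no count in 1 or 2 libraries of a group and were present in another: 10 had 0 counts in at least 1 library and at least 1 CPM in another of the same group, and 0 of them were called by edgeR. FOXL2, a forkhead factor, was at 0, 3.62 and 0 CPM in DMSO and at 5.06, 4.87 and 5.48 CPM in CPI-0209 (adjusted p = 0.362 in edgeR). DLX5, a homeobox factor, was at 0.204, 1.38 and 1.24 CPM in DMSO and at 0, 1.91 and 1.99 CPM in CPI-0209 (adjusted p = 0.868 in edgeR).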
